A study of Mus musculus with 4 samples.

Results

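Tdh, Gcat, Gldc, Shmt1, Shmt2, Mthfd1, Mthfd1l, Mthfd2, Psat1 and Phgdh code for enzymes that make and break down threonine, serine and glycine and that feed one-carbon units into folate. They were taken by name from the genes measured in F123-ESCs, and all 10 were found among the 24026 genes listed. No threshold on measured values entered that choice, but earlier results of these data were known when it was made.

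Threonine dehydrogenase, encoded by Tdh, and the ligase encoded by Gcat turn threonine into glycine and acetyl-CoA in mitochondria. Serine is made from a glycolytic intermediate by the enzymes of Phgdh, Psat1 and Psph in that order. The Shmt enzymes and the glycine cleavage system, whose decarboxylase is encoded by Gldc, move one carbon from serine or glycine to tetrahydrofolate, and the Mthfd enzymes change the oxidation state of that carbon or release it as formate. Mouse ESCs are known for high expression of Tdh and for their dependence on threonine.

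F123-ESCs are a male hybrid line of mouse embryonic stem cells, with a maternal S129 genome and a paternal CAST genome. RNAseq of polyA-enriched RNA was done in 4 libraries of untreated cells, replicates 1 to 4, with paired reads of 150 bp. The cells had been kept on inactivated fibroblast feeders in DMEM with 15% KSR, Glutamax, non-essential amino acids, beta-mercaptoethanol and 1000 U/ml LIF, then taken off feeders for 2 or more passages and harvested about 48 h after plating. All libraries are of one condition and one line, and S129 is always the maternal copy, so strain and parent of origin cannot be told apart. The labels do not say whether the libraries come from separate cultures, so the spread between them may be technical.

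Values are RPKM for each allele, reads scaled by gene length and by the total reads of that allele in the library. The alleles of a library are thus scaled by separate totals. Only reads that cover a SNP between the strains are counted. A gene's RPKM therefore depends on the SNPs it holds as well as on its transcripts. The level of a gene is the mean of both alleles in a library. Between 34120416 and 56627972 reads were assigned to the 2 alleles of a library. The 8 pluripotency markers were at 29.5 RPKM or more, up to 7111 RPKM for Dppa5a. Of 8 feeder fibroblast markers only Col1a2 reached 20 RPKM, at 166 RPKM, and the summed level of this list ran from 179 to 225 RPKM over the libraries. Among 6 primitive endoderm markers the highest was Pdgfra at 3.31 RPKM, and among 6 neural progenitor markers Nes at 76.2 RPKM was the only one of at least 20 RPKM. The part of these markers in the results below was not tested.

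All 10 genes were well expressed. Their median level was 64.6 RPKM, where the median of all 24026 listed genes was 0.975 RPKM, and even the lowest of them, Gcat, stood above 85.5% of the listed genes. In bulk RNA, fewer cells that express a gene and less RNA per cell cannot be told apart. Tdh was highest, with 157 ± 3.10 RPKM (SD, n = 4 libraries), followed by Psat1 with 144 ± 5.97 RPKM, Phgdh with 137 ± 8.68 RPKM and Mthfd1 with 117 ± 12.5 RPKM. Mthfd2 had 67.0 ± 3.28 RPKM and Gldc 62.2 ± 6.64 RPKM. Below them came Shmt2 with 43.7 ± 2.44 RPKM, Shmt1 with 30.7 ± 3.62 RPKM, Mthfd1l with 26.1 ± 1.42 RPKM and Gcat with 23.9 ± 1.51 RPKM (SD, n = 4 for each).

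Of the steps in this order, 4 were wider than the spread between libraries, in the sense that the library values of the neighbours did not overlap. These were the steps from Tdh to Psat1, from Mthfd1 to Mthfd2, from Gldc to Shmt2 and from Shmt2 to Shmt1. The other neighbours overlapped. Within libraries, however, Psat1 was above Phgdh, Phgdh above Mthfd1, Shmt1 above Mthfd1l and Mthfd1l above Gcat in 4 of 4 libraries, whereas Mthfd2 was above Gldc in 3 of 4. The order of levels and the ratios between genes were not corrected for SNP content, which can differ between genes. Partner genes were compared by the log2 difference of their levels within each library, with an exact permutation of its signs. Over 4 libraries its two-sided p can be no lower than 1 in 8, so no pair could pass a threshold of 0.05. With RPKM set to the joint length of every annotated exon, the median level of the 10 genes was 39.2 RPKM, with Tdh at 113 RPKM and Gcat at 17.7 RPKM.

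**Figure D1:**
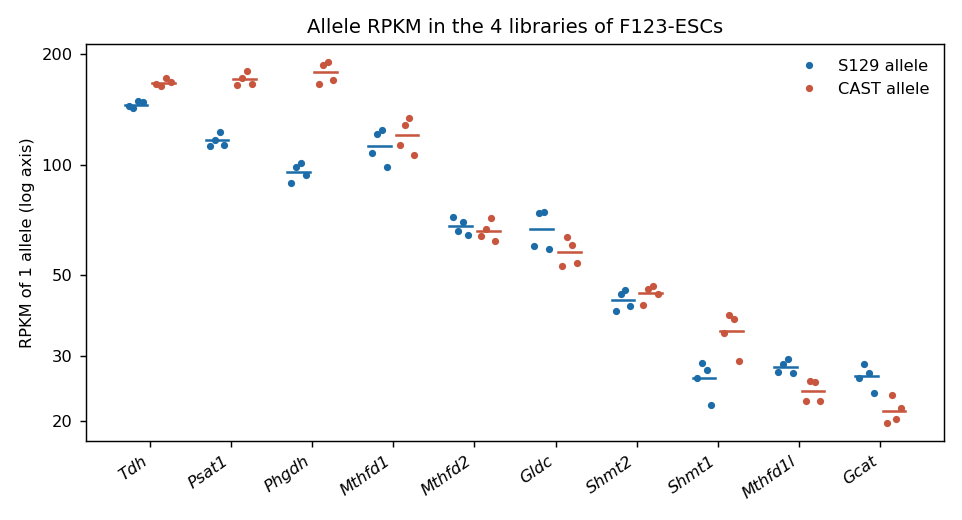
RPKM of the S129 allele (blue) and the CAST allele (red) in each of the 4 libraries, on a log axis, with genes ordered by level. Points are libraries and lines are means; Tdh, Psat1, Phgdh and Mthfd1 lie at the top, and the alleles of Phgdh and Psat1 are the farthest apart.

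Tdh (ENSMUSG00000021953) lies on the minus strand of chromosome 14, from 63492347 to 63509092 in mm10. Only 2.64% of the listed genes had a higher level. The S129 allele had 144, 143, 149 and 148 RPKM in replicates 1 to 4, and the CAST allele had 166, 164, 172 and 168 RPKM. These values rest on 4838 to 8698 reads each. Tdh was the steadiest of the 10 genes between libraries, with a coefficient of variation of 1.98%, where the median of the 13341 genes tested was 9.66%.

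Gcat (ENSMUSG00000006378), which codes for the enzyme of the next step, lies on the plus strand of chromosome 15, from 79030874 to 79038353. Its S129 allele had 26.3, 28.6, 27.1 and 23.9 RPKM and its CAST allele 19.8, 23.6, 20.2 and 21.7 RPKM in replicates 1 to 4. Its fewest reads, 640 on CAST in replicate 4, were recovered with a searched gene length and are the fewest possible. Taken as the count, they give an exact 95% Poisson interval of 20.1 to 23.5 RPKM, which covers counting error only. Gcat was below Tdh in 4 of 4 libraries, at 0.153 times its level (-2.71 ± 0.11 as log2 with 0.1 RPKM added, SD over 4 libraries, exact permutation p = 0.13). GENCODE M21 holds a second gene model of the name Gcat that shares 1132 exon bases with it on the same strand, so reads of both cannot be told apart there.

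The promoter window of Gcat, from RefSeq (GRCm38.p6), is shown because it alone held CACGTG, a form of the E-box. The windows of 9 genes were searched, all but Tdh. Other forms of the E-box were not searched. The window is on the plus strand at chr15:79030624-79030923, with CACGTG in capitals, which begins at base 3 counted from the start as base 1. The letters are those of the reference genome and not of either allele.

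Gcat: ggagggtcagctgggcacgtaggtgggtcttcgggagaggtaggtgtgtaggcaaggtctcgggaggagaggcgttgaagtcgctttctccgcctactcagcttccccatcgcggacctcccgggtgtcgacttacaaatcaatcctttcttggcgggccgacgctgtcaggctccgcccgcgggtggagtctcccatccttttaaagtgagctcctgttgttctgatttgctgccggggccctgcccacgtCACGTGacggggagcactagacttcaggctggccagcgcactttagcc

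Gldc (ENSMUSG00000024827, chromosome 19, 30098447 to 30175429, minus strand) codes for the glycine decarboxylase of the cleavage system. The S129 allele had 60.1, 73.7, 74.3 and 59.1 RPKM and the CAST allele 52.9, 63.6, 60.2 and 53.9 RPKM in replicates 1 to 4. Both alleles were thus higher in replicates 2 and 3 than in 1 and 4. The other parts of the system were expressed as well. Gcsh, the lipoyl carrier protein, had 155 ± 3.08 RPKM, Amt, the aminomethyltransferase, had 114 ± 5.21 RPKM, and Dld, the lipoamide dehydrogenase shared with other complexes, had 63.0 ± 7.74 RPKM (SD, n = 4 each). Gldc was below Gcsh in 4 of 4 libraries, at 0.3997 times its level (log2 difference of -1.32 ± 0.17, SD over 4 libraries, exact permutation p = 0.13).

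The genes of serine synthesis stood at 90.5 RPKM or more. Phgdh (ENSMUSG00000053398), which codes for the first enzyme, lies on chromosome 3 from 98313170 to 98339990 on the minus strand. Its S129 allele had 89.0, 98.7, 101 and 93.9 RPKM in replicates 1 to 4, while its CAST allele had 166, 187, 190 and 170 RPKM. Psat1 (ENSMUSG00000024640), for the transaminase that follows, lies on chromosome 19 from 15904678 to 15947337 on the minus strand. Its S129 allele had 113, 117, 122.96 and 113 RPKM, and its CAST allele had 165, 172, 181 and 166 RPKM. In both genes every CAST value was above every S129 value. Psph, for the phosphatase of the last step, had 90.5 ± 3.88 RPKM (SD, n = 4).

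The level of Psat1 was 1.05 times that of Phgdh, with the log2 difference at 0.069 ± 0.043 (SD over 4 libraries, exact permutation p = 0.13). Psat1 was higher in 4 of 4 libraries, but the order turned with the CAST allele alone, to -0.061, and with the length of all annotated exons, to -0.24.

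Mitochondrial and cytosolic forms of the same enzyme were set side by side. The ratios between them also carry the SNP content of each gene, which was not corrected for. Shmt2 (ENSMUSG00000025403, chromosome 10, 127517123 to 127522444, minus strand), the mitochondrial serine hydroxymethyltransferase, stood at 1.43 times the level of Shmt1 (ENSMUSG00000020534, chromosome 11, 60788104 to 60811718, minus strand), the cytosolic one. In single libraries the ratio lay between 1.33 and 1.67 (log2 difference of 0.51 ± 0.15, SD over 4 libraries, exact permutation p = 0.13). Shmt1 varied most of the 10 genes between libraries, from 25.7 RPKM in replicate 4 to 33.8 RPKM in replicate 2.

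Mthfd1 (ENSMUSG00000021048, chromosome 12, 76255298 to 76319803, plus strand), the cytosolic enzyme with 3 activities, had 110, 124, 129.14 and 102 RPKM in replicates 1 to 4. Mthfd1l (ENSMUSG00000040675, chromosome 10, 3973118 to 4167081, plus strand), the mitochondrial synthetase that releases formate, had 24.97, 27.1, 27.6 and 24.8 RPKM. Mthfd1l stood at 0.226 times the level of Mthfd1 (log2 difference of -2.15 ± 0.082, SD over 4 libraries, lower in 4 of 4, exact permutation p = 0.13).

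Mthfd2 (ENSMUSG00000005667, chromosome 6, 83305691 to 83325908, minus strand) codes for the mitochondrial dehydrogenase and cyclohydrolase that is known for its high expression in embryos and tumours. It had 68.0, 66.2, 70.8 and 62.9 RPKM in replicates 1 to 4. Its paralogue Mthfd2l had 0.695 ± 0.062 RPKM (SD, n = 4), so that Mthfd2 was 84.5 times as high on the log2(RPKM+0.1) scale (log2 difference of 6.40 ± 0.089, exact permutation p = 0.13), and 5.33 in log2 with a pseudocount of 1 RPKM. In all, 6 such pairs of partners were compared, Gcat with Tdh, Gldc with Gcsh and Psat1 with Phgdh among them, and each adjusted p from the exact permutation was 0.13, the smallest that 4 libraries allow.

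Between the alleles, S129 minus CAST was tested within each library by limma over the 13341 genes whose alleles summed to a mean of 1 RPKM or more. The p-values were adjusted over all of them after Benjamini-Hochberg, with a threshold of 0.05. Standard errors given with limma are moderated, with the spread of each gene drawn toward that of all genes tested. They can therefore exceed the SD of a gene over its own 4 libraries. All 10 genes passed the filter. Of these, 5 were higher on CAST (Phgdh, Psat1, Shmt1, Tdh and Mthfd1) and 3 higher on S129 (Gcat, Mthfd1l and Gldc), while Mthfd2 and Shmt2 did not pass the test. Over all genes tested, 31.3% were called higher on CAST and 31.4% higher on S129, 62.7% in all. On the autosomes, where these genes lie, it was 32.5% and 28.9%, 61.4% in all, and of autosomal genes with at least 20 RPKM, as all 10 have, 70.3% were called. The 8 of 10 genes called are near that background. When every column was rescaled to the same sum over autosomal genes, which moves all genes by a mean of 0.10 in log2 toward S129, 5121 genes were called higher on S129 and 3072 on CAST, in place of 4187 and 4182, and of the 10 genes 3 were called each way. Their median size of the difference was 0.21 in log2, against 0.29 for autosomal genes tested. The latter include genes under 20 RPKM, and the median for those of at least 20 RPKM alone was not computed.

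Phgdh had the largest difference, with CAST 1.86 times as high as S129 (log2 difference of -0.90, standard error 0.031, adjusted p = 5.48e-05 from limma, CAST higher in 4 of 4 libraries). The S129 allele took 35.8% ± 0.47 of its reads (SD, n = 4). Its neighbours on chromosome 3 were shifted the same way. The 220 tested genes that start within 10 Mb of it had a median difference of -0.84, and 83.2% of them were called higher on CAST. With the median of these neighbours taken out, the difference of Phgdh was -0.065 and did not pass the test (adjusted p = 0.173 from limma). With the median of all of chromosome 3 taken out, it was -0.18 and passed (adjusted p = 0.00837 from limma). GENCODE M21 also holds 19 other genes, 17 of them annotated as pseudogenes, with a stretch of 300 bases or more that is at least 90% identical to the Phgdh transcript. Of these, Gm6756 and Gm8096 are in the deposited table, at 0.00887 RPKM and at 0. What these copies add to the reads of either allele was not tested.

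Psat1 had the next difference, with CAST 1.47 times as high (log2 difference of -0.55, standard error 0.028, adjusted p = 0.000180 from limma, CAST higher in 4 of 4 libraries). Its S129 share was almost the same in every library, between 41.41% and 41.46%, but the counting error of this share was not computed. Its 155 neighbours within 10 Mb had a median of -0.097, and 9.03% of them lay farther toward CAST than Psat1. With the neighbours taken out, the difference was -0.46 (adjusted p = 0.000536 from limma). One annotated pseudogene, Gm12611, is 91.0% identical to Psat1 over 1056 bases.

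Shmt1 was 1.34 times as high on CAST (log2 difference of -0.42, standard error 0.030, adjusted p = 0.000485 from limma, 4 of 4 libraries). The S129 allele had 26.1, 28.8, 27.6 and 22.2 RPKM and the CAST allele 34.8, 38.9, 37.9 and 29.2 RPKM in replicates 1 to 4. Although Shmt1 varied between libraries, both alleles did so together, and the difference had an SD of only 0.028. The median of its neighbours was -0.015, and with them taken out the difference was -0.40 (adjusted p = 0.00124 from limma).

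Tdh was 1.15 times as high on CAST (log2 difference of -0.20, standard error 0.029, adjusted p = 0.00450 from limma, 4 of 4 libraries). Its 175 neighbours had a median of -0.032, and with them taken out the difference was -0.16 (adjusted p = 0.0134 from limma). With every column at the same autosomal sum, the difference was -0.095 and the call was lost (adjusted p = 0.0734 from limma). One annotated pseudogene, Gm13929, is 97.1% identical to Tdh over 1125 bases.

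Mthfd1 was the weakest call, at a log2 difference of -0.094 (standard error 0.029, adjusted p = 0.0470 from limma, CAST higher in 4 of 4 libraries). The alleles overlapped, with 98.3 to 124 RPKM on S129 and 106 to 134 RPKM on CAST. The call was lost without any one of the replicates (adjusted p from 0.100 to 0.153 from limma), and the difference turned to 0.0090 when columns were rescaled to the same autosomal sum.

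Of the genes higher on S129, Gcat had a fold of 1.24 (log2 difference of 0.31, standard error 0.062, adjusted p = 0.0123 from limma). Mthfd1l had a fold of 1.16 (log2 difference of 0.22, standard error 0.035, adjusted p = 0.00616 from limma), with 27.0 to 29.5 RPKM on S129 and 22.7 to 25.7 RPKM on CAST. Gldc had a fold of 1.15 (log2 difference of 0.21, standard error 0.041, adjusted p = 0.0119 from limma). S129 was higher in 4 of 4 libraries for each of them. The call of Gcat was lost without replicate 1 (adjusted p = 0.0503 from limma), and that of Gldc without replicate 2 (adjusted p = 0.0525 from limma) or without pairing the alleles by library (adjusted p = 0.151 from limma).

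Neither Mthfd2 nor Shmt2 passed the test. Mthfd2 had 72.0, 65.8, 69.9 and 64.2 RPKM on S129 and 64.1, 66.7, 71.7 and 61.7 RPKM on CAST in replicates 1 to 4, with S129 higher in 2 of 4 libraries (log2 difference of 0.042, standard error 0.048, adjusted p = 0.485 from limma). Its 109 neighbours on chromosome 6 had a median of 0.25 toward S129, and against them Mthfd2 lay toward CAST, by -0.23 (adjusted p = 0.0116 from limma). Shmt2 had 39.9 to 45.5 RPKM on S129 and 41.4 to 46.8 RPKM on CAST, with CAST higher in 4 of 4 libraries (log2 difference of -0.061, standard error 0.031, adjusted p = 0.155 from limma). Against its 99 neighbours, with a median of 0.066, the difference of Shmt2 was -0.14 (adjusted p = 0.0206 from limma). For both genes the count of libraries depends on the scaling of each allele by its own total. Before that scaling, the S129 allele took 49.1% to 50.3% of the reads of Shmt2 over the libraries. For Mthfd2 it took 50.3% to 53.7%.

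**Figure D2:**
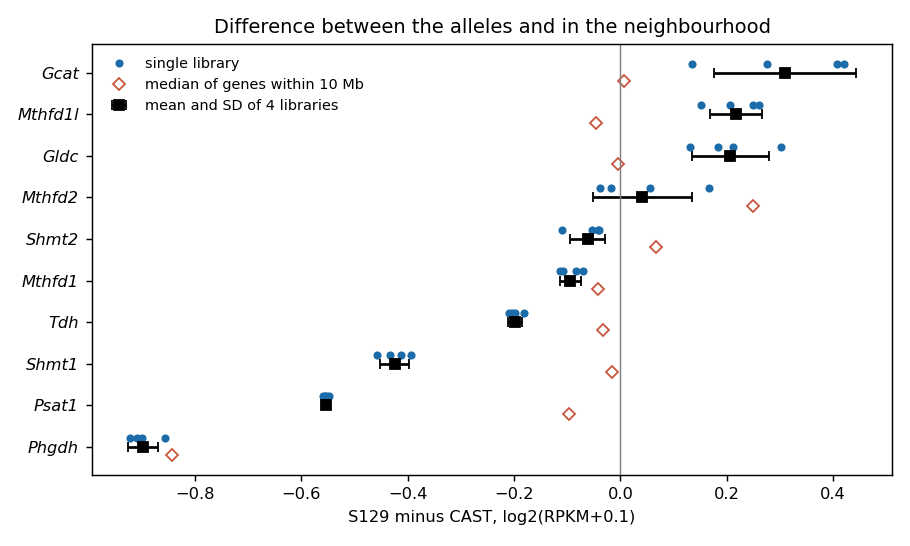
Difference between the alleles, S129 minus CAST on the log2(RPKM+0.1) scale, for each gene, with blue points for single libraries, black squares and bars for the mean and SD of 4 libraries, and open red diamonds for the median of the tested genes that start within 10 Mb. For Phgdh the gene (-0.90) and its neighbourhood (-0.84) lie side by side, while Psat1 and Shmt1 lie far from a neighbourhood near 0.

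Exons of 4 of the genes overlap exons on the opposite strand. Shmt1 shares 184 bases with Smcr8, Tdh 66 bases with Gm17232, Mthfd1 37 bases with Gm47525 and Shmt2 32 bases with Ndufa4l2. The library kit keeps the strand, but whether the counting used it is not given in the sources used here.

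Between libraries, most of the genes moved as the whole table did. In 8 of 10 genes replicates 2 and 3 both lay above replicates 1 and 4, and this was so in 50.8% of the 13341 genes tested. The median gene was at 97.8%, 104%, 105% and 93.2% of its own mean in replicates 1 to 4, and the median of the 10 genes was at 96.0%, 104%, 106% and 95.2%. The exceptions were Tdh, with 153 RPKM in replicate 2 and 158 RPKM in replicate 4, and Mthfd2, with 68.0 RPKM in replicate 1 and 66.2 RPKM in replicate 2. Gldc showed the widest step, with replicates 2 and 3 on average 1.203 times as high as replicates 1 and 4, 1.24 times on S129 and 1.16 times on CAST. Mthfd1 followed with 1.19 times. The coefficient of variation of the 10 genes had a median of 5.96%, against 8.68% for genes with at least 20 RPKM.

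**Figure D3:**
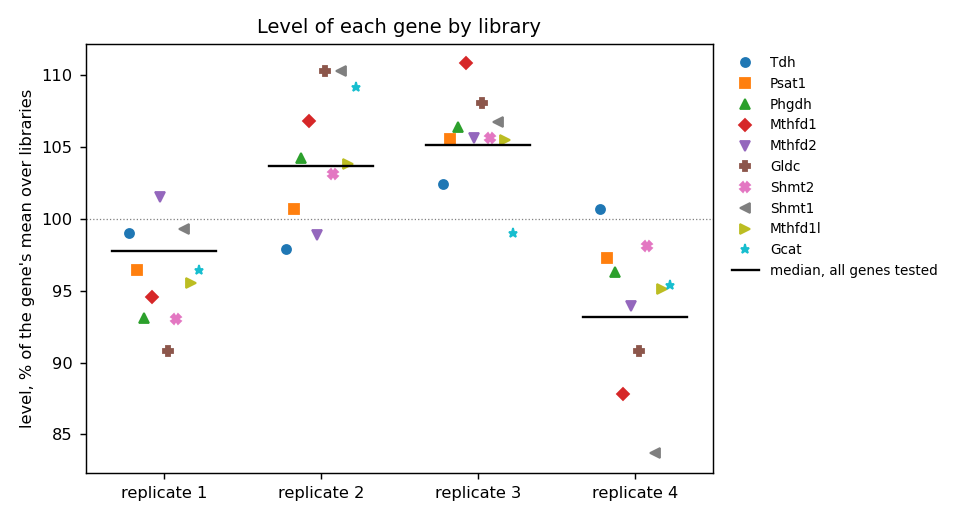
Level of each of the 10 genes in each library as a percentage of its own mean over the libraries, with the median of all 13341 genes tested as a black line. Most genes follow the line, whereas Tdh stays near 100% and Shmt1 falls lowest, in replicate 4.

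The wider pathway was described by 52 further genes, which had a median level of 13.1 RPKM. Of these, 46 passed the filter, with 20 higher on CAST, 11 higher on S129 and 15 that did not pass the test, so that 67.4% were called, near the 61.4% of autosomal genes. With every column at the same autosomal sum, 16 were higher on CAST and 15 higher on S129. Of autosomal genes tested, 32.5% were called higher on CAST and 28.9% higher on S129. In the rest of the serine and glycine route 6 of 9 genes tested were higher on CAST and 1 was higher on S129. In the rest of the folate cycle the numbers were 4 and 6 of 18, in the methionine cycle 4 and 3 of 8, and among amino acid carriers and their regulators 6 and 1 of 11. Without pairing the alleles by library, 7 genes of the wider pathway were called higher on S129 and 17 on CAST.

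The highest of these genes was Folr1, a folate receptor, with 407 ± 19.3 RPKM (SD, n = 4), above Tdh. Atf4, the transcription factor of the amino acid response, had 203 ± 7.08 RPKM, and Gcsh followed. Folr1 and Atf4 were both higher on CAST in 4 of 4 libraries, by -0.57 in log2 (adjusted p = 0.000186 from limma) and by -0.29 (adjusted p = 0.00321 from limma). Gcsh was higher on S129 by 0.40 (adjusted p = 0.000637 from limma), on chromosome 8, where the median gene was at -0.25.

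The largest differences toward CAST were those of Slc1a5, a carrier of neutral amino acids, with 13.4 ± 0.42 RPKM on S129 and 38.8 ± 3.003 RPKM on CAST (log2 difference of -1.52, adjusted p = 4.44e-05 from limma), of Sdsl, a serine dehydratase-like gene at 2.16 RPKM (-1.39, adjusted p = 0.00501 from limma), and of Ahcyl1, which is related to S-adenosylhomocysteine hydrolase, at 0.907 RPKM (-1.05, adjusted p = 0.000564 from limma). Ahcyl1 lies on chromosome 3, where the median gene was at -0.74. Toward S129 they were those of Ahcyl2, a paralogue of Ahcyl1 on chromosome 6, with 68.7 ± 6.20 RPKM on S129 and 40.7 ± 5.78 RPKM on CAST (0.76, adjusted p = 0.000349 from limma), of Tyms, for thymidylate synthase, with 51.7 ± 1.75 and 32.4 ± 0.51 RPKM (0.67, adjusted p = 0.000183 from limma), and of Folr2 at 2.22 RPKM (0.51, adjusted p = 0.00567 from limma).

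The 6 genes of the wider pathway that did not pass the filter, named after their values were seen, were Sds, Agxt2, Ftcd, Mat1a, Bhmt and Bhmt2, at 0.426 RPKM or less. Several of them are known as liver enzymes. Mat1a, the form of methionine adenosyltransferase in adult liver, had 0.112 ± 0.028 RPKM, and Mat2a, the form of most other cells, had 24.1 ± 2.29 RPKM (SD, n = 4 each).

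**Figure D4:**
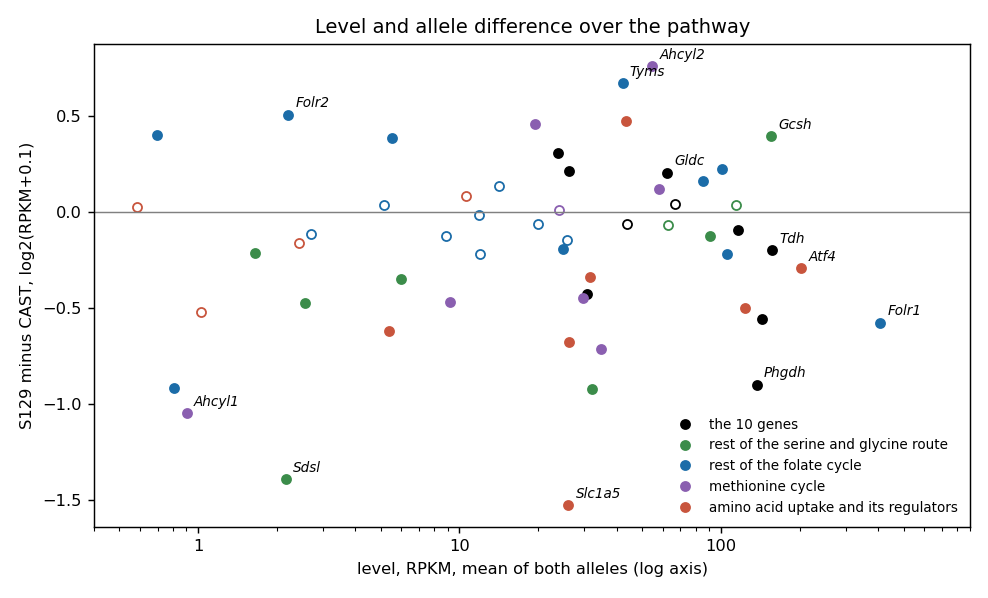
Level (mean of both alleles in RPKM, log axis) and allele difference (S129 minus CAST, log2) of the 10 genes in black and of 46 further genes of the pathway by list. Filled points passed the limma test at an adjusted p of 0.05 and open points did not; Folr1 is the highest gene, and Slc1a5 lies farthest toward CAST.

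The genes whose 8 allele values were most like those of a member were found by the root mean square difference of log2(RPKM+0.1) over the 8 columns. For Tdh they were Tcea3 (0.057), Ppan (0.063) and Cyba (0.098). For Gldc they were Atp6v1b2 (0.073), Cnot10 (0.076) and Ap5z1 (0.084). For Phgdh they were Arhgef2 (0.065) and Elovl6 (0.153), which lie on chromosome 3 as well, and Acaca (0.158) on chromosome 11. As all columns are of one condition, this likeness is mainly one of level and allele ratio.

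Promoter windows of RefSeq (GRCm38.p6), from 250 bases before to 50 after a start, were matched by symbol for 9 of the 10 genes, all but Tdh, in 10 windows, since Psat1 has 2. Their GC content ran from 42.7% for Shmt2 to 66.7% for the second start of Psat1, with a median of 59.0% against 52.7% for all 32851 windows. The letters TGATGNAA, a core of the amino acid response element bound by ATF4, were found on neither strand in any of the 10 windows, and in 3.97% of all windows. CACGTG, a form of the E-box, was found in the window of Gcat alone, and in 7.15% of all windows. Other forms of the E-box were not searched. No match says only that these letters are not in these bases.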

How the data were processed

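RNAseq of 4 libraries of untreated F123-ESCs was used. The authors deposited RPKM for either allele of a gene. Before that they removed rRNA reads with SortMeRNA, followed by trimming with Trimmomatic (0.40), STAR alignment to mm10 masked at SNPs, and division by SNPsplit. The authors' averages and log10 of the average plus 1 were not used. The counting program and annotation are not given in the sources used here.

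The first S129 column is numbered -1 and was read as replicate 1, the only number of that allele left. Whole reads and totals were recovered from the steps of the RPKM with GENCODE M21 lengths, for 99.5% of the 20243 genes above 0 (within 0.02 reads of a whole number). For Gcat and Gldc the length was searched, and the reads are the fewest possible. Alleles were compared by limma (3.58.1, R 4.3.3) on log2(RPKM+0.1) within libraries, with an intercept as the model. The added 0.1 RPKM understates differences of low genes. Columns of one number were taken as reads of one library, from the column names. Their deviations correlated at 0.106 to 0.202 over 12869 genes, against -0.162 to 0.145 for other numbers, so these ranges overlap. Levels were compared by exact sign-flip tests. Similar transcripts were found with blastn (2.17.0). The recovery of reads and limma were tested on simulated data.

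The 10 genes and all lists were chosen with earlier results of these data known. Named are the 10 genes, 6 pairs, in the wider pathway the 3 highest genes and the 3 largest differences each way, the 3 genes most like Tdh, Gldc and Phgdh, and the highest gene of each marker list. The alternatives are in the closing section. Protein identities were not computed, since no protein sequences were used here.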

Additional observations from a re-analysis of the deposited data

Results flagged for a closer look

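Dixon's criterion for 4 values was applied to the level, the RPKM of each allele and the allele difference of the 10 genes, 40 quantities in all. In none of them was a library far from the others, where chance would give about 1 in 20.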

How the results depend on the processing

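Rescaling every column to the same sum over autosomal genes left 3 of the 10 genes called higher on CAST in place of 5, and turned the difference of Shmt2 to 0.041 and of Mthfd1 to 0.0090. The 10 genes with the highest RPKM, Rmrp first, hold 26.1% of that sum. With recovered reads that were not scaled by depth, 4 were called on CAST and 3 on S129. Mthfd2 turned to -0.16 against the median of its chromosome, to -0.23 against its neighbours, and to -0.00028 without replicate 1, with a range of -0.00028 to 0.068 over the replicates left out. The exon-union length gave a median level of 39.2 RPKM, and Psat1 minus Phgdh turned to -0.24 with it and to -0.061 with the CAST allele alone. Without the replicate block, which pairs the alleles by library, Gldc and Mthfd1 lost their calls, the other 8 genes kept theirs or stayed uncalled, and 7 genes of the wider pathway were called on S129 in place of 11. The causes were not tested. Of 140 values of allele differences of single genes under alternatives, 120 kept their direction and side of the threshold, 14 lost the call and 1, Shmt2 against its neighbours, gained it, without a change of direction. The other 5 turned, and among them Mthfd1 lost its call with the same autosomal sum (adjusted p = 0.857 from limma), while Mthfd2 was called against the median of its chromosome (adjusted p = 0.0499 from limma) and against its neighbours (adjusted p = 0.0116 from limma). Of 60 values for the pairs, 58 kept their direction. Autosomal genes alone, an alternative chosen after the data were seen, changed no call of the 10 genes. Single reads limit none of these genes, each of which has at least 640 reads in every column.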
